A study of Mus musculus with 20 samples.

Results

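The lymph node that drains the duodenum was compared with the node that drains the jejunum in mice that have no mature T or B cells. The libraries were taken by their labelled position: 4 from duodenal nodes and 4 from jejunal nodes, 8 of the 20 libraries of the series. The duodenal nodes came from Rag1-/- mice of the strain B6.129S7-Rag1tm1Mom/J aged 9 weeks, and the jejunal nodes came from mice of the same genotype, strain and age, so both groups carry the loss of Rag1. Each library is polyA RNA of a whole node. The remaining 12 libraries (ileal, ceco-colonic and inguinal nodes, 4 each, same genotype and age) entered the fits only to estimate the spread per gene. Whether each position's 4 libraries are 4 mice, or hold pooled nodes, is not stated in the labels. The p-values therefore reflect only library-to-library spread, which may be technical.

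Each segment of the intestine sends its lymph to nodes of its own. Such a node is a scaffold of reticular stromal cells, lymphatic sinuses and specialised venules that holds macrophages, dendritic cells and innate lymphocytes. The node of the duodenum lies against the pancreas, and nodes of the mesentery are embedded in fat, so a dissected node can carry some of its surroundings. Stromal cells keep a record of their position along the body in the Hox genes, which lie in clusters on several chromosomes and are used so that higher-numbered members (paralogs) mark more posterior tissue.

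The libraries held lymph node RNA with few Cd3e transcripts. Ccl21a, the reticular chemokine that draws cells into the T-cell zone, stood at 2228 to 2576 CPM (counts per mega counts of the TMM-scaled library) in duodenal and 1172 to 2743 CPM in jejunal libraries, and its near-identical copies cannot be told apart from it. Nkx2-3, the homeobox factor that marks gut-associated venules, stood at 18.1 to 23.5 CPM in duodenal and 19.98 to 24.0 CPM in jejunal libraries, against a mean of 0.0344 CPM in inguinal nodes. Cd3e, the T-cell receptor subunit, was at 0.380 to 0.667 CPM in duodenal and 0.374 to 0.612 CPM in jejunal libraries. Cd3g and Cd4 stood higher. Cd3g was at 4.69 to 6.87 CPM in duodenal and 4.42 to 6.33 CPM in jejunal libraries. Cd4 was at 161 to 218 CPM in duodenal and 149 to 211 CPM in jejunal libraries, and its cells of origin were not tested. Rag1 itself gave 2.15 to 2.91 CPM in duodenal and 2.27 to 2.75 CPM in jejunal libraries, and since the table does not say which part of the gene these reads came from, they do not check the allele. Duodenal libraries summed to 189.4 to 227.9 M estimated counts (M, mega) and jejunal libraries to 176.1 to 304.6 M.

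Of 29411 genes tested, 831 (2.83%) were called at an adjusted p under 0.05 (edgeR, quasi-likelihood test, p-values adjusted after Benjamini and Hochberg): 378 (1.29%) were higher and 453 (1.54%) lower in duodenal nodes. Duodenal libraries 1 and 2 carried transcripts of pancreatic acinar cells, described below with the other tissue markers, so the fit was repeated without them. It called 109 genes (0.371%), 92 higher and 17 lower. A difference is said here to hold where both fits called it with the same sign, which was so for 101 genes (0.343% of those tested), 84 higher (0.286%) and 17 lower (0.0578%). The smaller fit has less power: on simulated counts of these libraries the 20-library fit recovered 58% of 2-fold changes and the fit without libraries 1 and 2 recovered 48%. A looser count asked only whether libraries 3 and 4 both lay outside the range of the 4 jejunal libraries on the side of the call. That was so for 642 of the 831 called genes, 263 higher and 379 lower, against 14.6% of all genes tested on either side. A call favours this count, since libraries 3 and 4 were part of the fit that made the calls. Of the called lower genes, the fold change without libraries 1 and 2 was a median of 0.804 times the one with them, and 35 of the 831 changed sign.

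The fit of all 5 positions carries these calls. When the 8 duodenal and jejunal libraries were fitted alone, edgeR's quasi-likelihood test called 0 genes, with a smallest adjusted p of 0.102, while 3505 genes had an unadjusted p under 0.05. For comparison, 5454 genes had an unadjusted p under 0.05 in the 20-library fit. DESeq2 called 1716 genes and 334 held, and limma-voom called 513 and 51 held. Leaving out duodenal library 2 alone lowered the calls to 216, and leaving out jejunal library 2, 3 or 4 gave 486, 435 or 454. The held genes numbered 13 without duodenal library 3, 195 without duodenal library 4, 26 without jejunal library 3 and 64 without jejunal library 4.

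**Figure D1:**
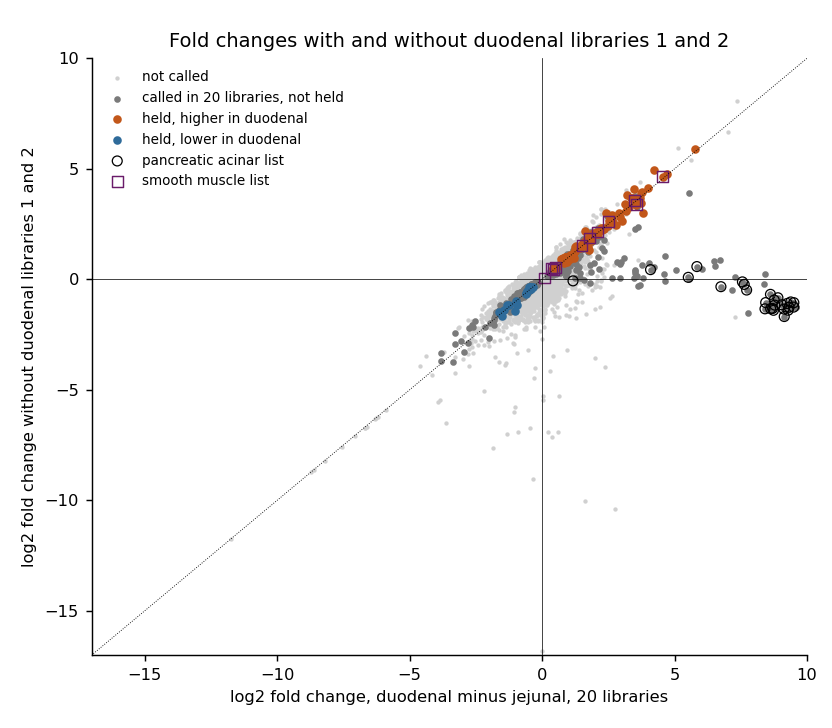
Each point is 1 of the 29411 genes: across, the log2 fold change of duodenal minus jejunal nodes in the fit of 20 libraries, and up, the same without duodenal libraries 1 and 2. Held genes (coloured) and the smooth muscle list (squares) lie along the dotted line of equal values, whereas the pancreatic acinar list (circles) lies far to the right, with 23 of its 26 genes below 0 on the upward axis.

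Pancreatic enzyme transcripts gave the largest fold changes, and none of them held. Of the 26 genes of the acinar list that were tested, 25 were called higher in duodenal nodes and 0 held, against 1.29% of all genes called higher and 0.286% held. The list's median log2 fold change was 8.72 in the 20-library fit and -1.05 without libraries 1 and 2, beside 0.01 and -0.005 over all genes. Cpa1, the digestive carboxypeptidase, stood at 1981, 1146, 0.415 and 0.964 CPM in duodenal libraries 1 to 4, against 6.52, 0.296, 0.116 and 0.188 CPM in jejunal libraries 1 to 4. Duodenal libraries 1 and 2 were thus high. Duodenal libraries 3 and 4 lay inside the jejunal range only through jejunal library 1, and both were above jejunal libraries 2 to 4. Its log2 fold change was 8.73 (SE 1.89, adjusted p = 0.0172) with all libraries and -1.40 (SE 1.06, adjusted p = 0.719) without libraries 1 and 2. The call of Cpa1 was lost without jejunal library 2 (adjusted p = 0.0526), 3 (0.0535) or 4 (0.0548).

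Summed over the list, acinar transcripts came to 53760, 30060, 41.7 and 58.0 CPM in the duodenal libraries, against 171.7, 31.8, 31.5 and 37.4 CPM in the jejunal ones. In this sum too, duodenal libraries 3 and 4 lay above jejunal libraries 2 to 4 and below jejunal library 1. Dmbt1, Pdia2 and Krt18, outside the list, were highest in the same 2 duodenal libraries. Dmbt1, a secreted scavenger-receptor protein of mucosal and glandular epithelia, stood at 500.2, 419, 0.203 and 0.320 CPM in the duodenal libraries, against 2.09, 0.0789, 0.0848 and 0.0181 CPM in the jejunal ones. Pdia2, a protein disulfide isomerase of the pancreas, followed the same order of libraries, with 115, 58.6, 0.102 and 0.106 CPM in the duodenal libraries against 0.361, 0.0247, 0.0268 and 0.0484 CPM in the jejunal ones. The epithelial keratin gene Krt18 likewise had 7.84, 5.05, 0.423 and 0.375 CPM in the duodenal libraries, against 0.391, 0.252, 0.259 and 0.278 CPM in the jejunal ones. The islet and duct list had 0 of 7 tested genes called, and reads of the amylase and trypsin families cannot be assigned to single copies.

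**Figure D2:**
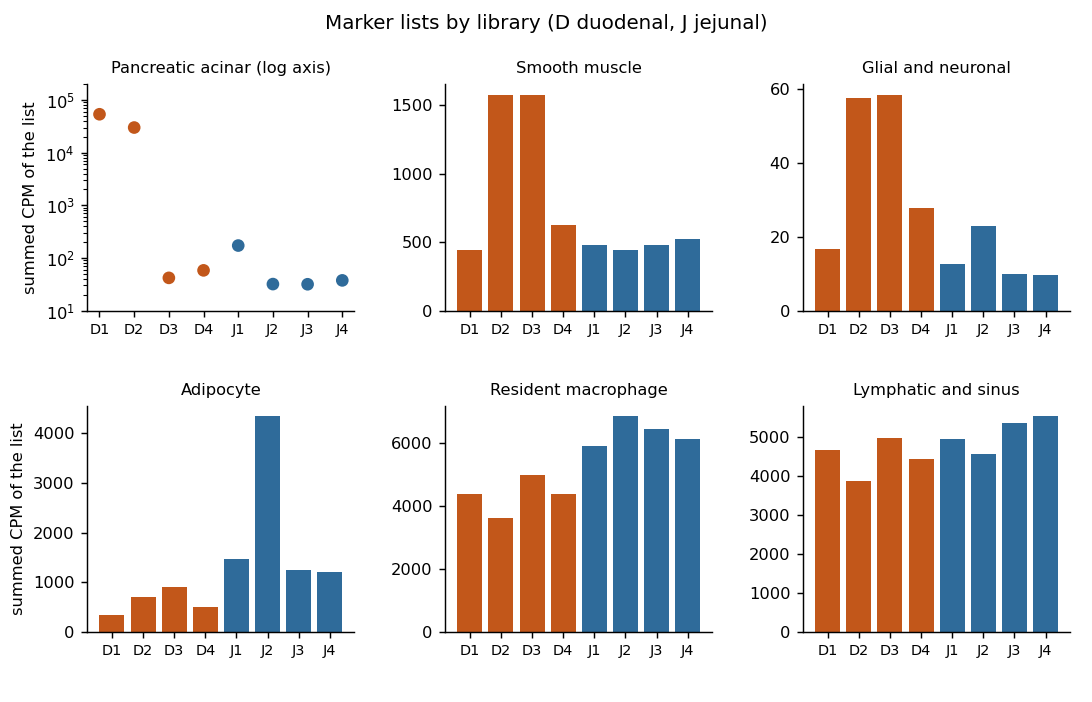
Summed CPM of 6 marker lists in duodenal libraries D1 to D4 (orange) and jejunal libraries J1 to J4 (blue), the acinar list on a log axis. Acinar transcripts are high in D1 and D2, smooth muscle and glial transcripts in D2 and D3, adipocyte transcripts in J2, and macrophage transcripts are lower in every duodenal library than in every jejunal one.

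Smooth muscle transcripts were high in another pair of duodenal libraries and were called without libraries 1 and 2. Of 11 tested genes of the smooth muscle list, 8 were called higher and 7 held: Cnn1, Myh11, Myocd, Tagln, Acta2, Lmod1 and Actg2. Of all genes tested, 1.29% were called higher and 0.286% held as higher. The median log2 fold change of the list was 1.79 with all libraries and 1.87 without libraries 1 and 2, beside 0.01 and -0.005 over all genes. Cnn1, the calponin of contractile smooth muscle, stood at 0.443, 35.8, 37.3 and 4.41 CPM in duodenal libraries 1 to 4, against 0.934, 1.30, 0.442 and 0.641 CPM in the jejunal ones. Libraries 2 and 3 were far above the jejunal range, library 4 was above it and library 1 was inside it. Acta2, smooth muscle actin, showed the same order with 23.4, 353, 366 and 66.1 CPM in the duodenal libraries, against 33.9, 34.8, 33.8 and 38.3 CPM in the jejunal ones.

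In the fit without duodenal libraries 2 and 3, which was added after the values were seen, 0 genes of the smooth muscle list were called. Acta2 then had a log2 fold change of 0.36 (adjusted p = 0.522), and Cnn1 one of 1.56 (adjusted p = 0.246). The adjusted p of Acta2 also passed 0.05 when library 2 alone was left out (0.0647), as did those of Tagln (0.0825), Myh11 (0.0992), Actg2 (0.0641) and Lmod1 (0.106), whereas Cnn1 and Myocd stayed called in all 8 fits that left out 1 library. Tagln was also lost without jejunal library 2 (0.0504), Myh11 without jejunal library 3 (0.0558), and Lmod1 without jejunal library 3 (0.0633) or 4 (0.0601). Of the 84 held higher genes, 67 had libraries 2 and 3 as their highest duodenal libraries, against 15.8% of all genes tested. The definition of held genes favours this count for library 3, since it asks for a call on libraries 3 and 4 alone. Library 1 lay within or below the jejunal range in 44 of the 84 and library 4 in 5.

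Susd5 and Mylk4 had the largest fold changes among held genes with no overlap and at least 5 CPM in duodenal nodes, and both were highest in libraries 2 and 3. Susd5, a sushi-domain membrane protein, stood at 0.357, 21.5, 24.5 and 2.58 CPM in the duodenal libraries, against 0.229, 0.296, 0.147 and 0.224 CPM in the jejunal ones. Mylk4, a myosin light chain kinase, had 0.753, 14.3, 16.99 and 0.654 CPM in the duodenal libraries, against 0.527, 0.587, 0.447 and 0.466 CPM in the jejunal ones. All 4 duodenal libraries were above all 4 jejunal ones for both genes. For Mylk4, libraries 1 and 4 were above by little. For Susd5, library 1 was above by little and library 4 was well above the jejunal range. Their log2 fold changes were 5.77 for Susd5 (SE 0.97, adjusted p = 0.00593) and 4.01 for Mylk4 (SE 0.72, adjusted p = 0.00867). Without duodenal libraries 2 and 3, Susd5 had 2.73 (adjusted p = 0.0645) and Mylk4 had 0.48 (adjusted p = 0.133). In a whole node, more cells of a type and more RNA per cell cannot be told apart, and the part of attached muscle in these differences was not tested.

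Transcripts of nerve and glia were also highest in duodenal libraries 2 and 3. Of 10 tested genes of the glial and neuronal list, 4 were called higher (1.29% of all genes were), and Prph and Uchl1 held. Uchl1, a ubiquitin hydrolase of neurons, lost its call without duodenal library 2 (adjusted p = 0.0787), jejunal library 2 (0.0519) or jejunal library 3 (0.0537). The list summed to 16.7, 57.3, 58.2 and 27.8 CPM in the duodenal libraries, against 12.7, 22.7, 9.99 and 9.57 CPM in the jejunal ones. Vip, the neuropeptide of enteric and other autonomic nerves, stood at 0.270, 0.327, 1.83 and 0.223 CPM in the duodenal libraries, against 0.0696, 0.0592, 0.0804 and 0.0787 CPM in the jejunal ones. Library 3 was the highest by far, and every duodenal library was above every jejunal one. The log2 fold change of Vip was 3.21 (SE 0.56, adjusted p = 0.00771), and 1.78 without duodenal libraries 2 and 3 (adjusted p = 0.0190).

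Prph, the peripherin filament of peripheral neurons, was more even, with 1.86, 2.26, 2.25 and 1.48 CPM in the duodenal libraries against 0.888, 0.833, 0.924 and 0.859 CPM in the jejunal ones. It rose by a log2 fold change of 1.16 (SE 0.15, adjusted p = 0.000684) and by 0.94 without duodenal libraries 2 and 3 (adjusted p = 0.00521). Its level in duodenal nodes was not the highest of the series: ileal, ceco-colonic and inguinal nodes averaged 1.52, 2.42 and 3.49 CPM. Snap25, the synaptic vesicle fusion protein, was highest in library 3 with 0.0863, 0.178, 0.945 and 0.289 CPM in the duodenal libraries, against 0.00994, 0.0542, 0.00893 and 0.00605 CPM in the jejunal ones. Its call was lost without jejunal library 3 (adjusted p = 0.0537). Vip and Snap25 lie outside the list and were chosen after their values were seen.

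Adipocyte transcripts were lower in the duodenal libraries, and few of them passed the test. Of 14 tested genes of the list, Lipe and Pnpla2, both triglyceride lipases, were called lower (1.54% of all genes were) and 0 held. The median log2 fold change over the list was -1.88. The list summed to 338, 707.5, 899.2 and 492 CPM in the duodenal libraries, against 1470.0, 4342, 1254 and 1205 CPM in the jejunal ones, so the groups did not overlap and jejunal library 2 stood apart. Adipoq, the adipocyte hormone adiponectin, had 3.92, 19.6, 28.2 and 11.5 CPM in the duodenal libraries, against 48.5, 163, 46.5 and 43.3 CPM in the jejunal ones. The fold change of Adipoq, -2.25 on the log2 scale, did not pass the test (95% interval -3.67 to -0.83, adjusted p = 0.0790). Without jejunal library 2 the adjusted p was 0.135 for Lipe and 0.0543 for Pnpla2. Lipe was also lost without duodenal library 1, 2 or 4 or jejunal library 4, and Pnpla2 without duodenal library 1 or 2.

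The Hox genes differed by their place in the cluster, and 5 of these differences held. Among the 9 tested paralogs 9 to 13, 6 were called lower in duodenal nodes (1.54% of all genes were) and 4 held: Hoxa9, Hoxa10, Hoxb9 and Hoxc9. Among the 8 paralogs 6 to 8, Hoxc8 and Hoxb8 were called lower and 0 held. The call of Hoxb8 was lost without duodenal library 1 (adjusted p = 0.0525), duodenal library 2 (0.101) or jejunal library 4 (0.0802). Among the 14 tested paralogs 1 to 5, Hoxa2, Hoxa3 and Hoxa4 were called higher (1.29% of all genes were) and Hoxa3 held. The median log2 fold change was -0.59 for paralogs 9 to 13, -0.26 for paralogs 6 to 8 and 0.15 for paralogs 1 to 5.

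The promoter windows of Hoxa2, Hoxa9 and Hoxa10, a selection of the called HoxA genes, show where they lie and what their start sites look like. These genes run in order along chromosome 6 (RefSeq, build GRCm38.p6, minus strand), Hoxa2 at chr6:52164782-52165081, Hoxa9 at chr6:52227321-52227620 and Hoxa10 from start sites at chr6:52234890-52235189 and chr6:52240805-52241104. The window of Hoxa3, the held anterior gene, is not printed. It lies at chr6:52213018-52213317, past those of Hoxa5 and Hoxa6 and out of paralog order, and has 0 matches to the motif below. Each window runs from 250 bases before the annotated start to 50 after it, 5′ to 3′ on the gene's strand. Capitals mark TTTAT on either strand, the core of sites bound by caudal-type homeobox factors.
Hoxa2: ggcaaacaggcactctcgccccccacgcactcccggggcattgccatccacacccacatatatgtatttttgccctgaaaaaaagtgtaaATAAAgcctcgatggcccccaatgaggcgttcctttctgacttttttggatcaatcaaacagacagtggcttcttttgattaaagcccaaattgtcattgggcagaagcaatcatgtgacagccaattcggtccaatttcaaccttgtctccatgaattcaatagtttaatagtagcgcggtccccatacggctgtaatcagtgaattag
Hoxa9: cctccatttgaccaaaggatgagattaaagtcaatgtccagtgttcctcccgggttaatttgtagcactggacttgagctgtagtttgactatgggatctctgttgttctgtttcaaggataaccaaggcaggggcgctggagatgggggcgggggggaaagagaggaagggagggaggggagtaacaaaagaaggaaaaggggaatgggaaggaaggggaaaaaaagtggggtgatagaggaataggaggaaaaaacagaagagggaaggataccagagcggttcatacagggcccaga
Hoxa10, nearer Hoxa9: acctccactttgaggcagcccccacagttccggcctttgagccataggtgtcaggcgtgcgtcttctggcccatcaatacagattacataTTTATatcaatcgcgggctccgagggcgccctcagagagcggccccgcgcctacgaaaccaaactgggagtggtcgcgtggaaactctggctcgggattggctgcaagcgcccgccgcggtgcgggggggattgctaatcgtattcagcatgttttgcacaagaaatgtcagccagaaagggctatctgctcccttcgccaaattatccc
Hoxa10, farther from Hoxa9: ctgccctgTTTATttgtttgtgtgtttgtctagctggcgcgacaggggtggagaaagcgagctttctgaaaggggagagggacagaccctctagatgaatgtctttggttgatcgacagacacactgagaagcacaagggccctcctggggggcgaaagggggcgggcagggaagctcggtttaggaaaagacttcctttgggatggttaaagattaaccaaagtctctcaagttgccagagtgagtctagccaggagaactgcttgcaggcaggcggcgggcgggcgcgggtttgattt
The motif was in 8 of the 22 Hox genes of the lists that had a window, and 43.8% of 27025 genes with a window hold it. A match is a description of the letters and not a site.

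Hoxa9 stood at 0.293, 0.457, 0.394 and 0.416 CPM in duodenal libraries 1 to 4, against 0.914, 0.957, 1.31 and 1.02 CPM in jejunal libraries 1 to 4. The groups did not overlap, and duodenal libraries 3 and 4 were as low as libraries 1 and 2. Its log2 fold change was -1.42 (SE 0.16, adjusted p = 0.000268) with all libraries and -1.38 (SE 0.19, adjusted p = 0.00167) without libraries 1 and 2. Hoxc9 stood at 0.535, 0.716, 0.754 and 0.654 CPM in the duodenal libraries, against 1.44, 1.70, 1.54 and 1.66 CPM in the jejunal ones, again without overlap. It fell by 1.25 on the log2 scale (SE 0.12, adjusted p = 0.000101), the smallest adjusted p of the Hox genes.

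Hoxa10 and Hoxb9 completed the held group. Hoxa10 was scarce, with 0.0805, 0.0961, 0.140 and 0.0710 CPM in the duodenal libraries against 0.301, 0.232, 0.384 and 0.278 CPM in the jejunal ones, and fell by 1.60 on the log2 scale (SE 0.20, adjusted p = 0.000684). Hoxb9 had 1.05, 1.38, 1.004 and 1.14 CPM in the duodenal libraries, against 1.96, 1.504, 1.88 and 1.51 CPM in the jejunal ones, and fell by 0.59 (SE 0.12, adjusted p = 0.0123). These 4 held genes of paralogs 9 and 10 were also called without duodenal libraries 2 and 3 and in each of the 8 fits that left out 1 library. Hoxc8 kept its call in those 8 fits as well, with 6.56, 7.04, 9.34 and 7.12 CPM in the duodenal libraries against 11.4, 14.2, 11.3 and 10.8 CPM in the jejunal ones, and missed the threshold without libraries 1 and 2 (adjusted p = 0.0860).

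The called anterior HoxA genes moved less than Hoxa9, Hoxa10 and Hoxc9. Hoxa3 stood at 4.50, 6.48, 6.86 and 5.99 CPM in the duodenal libraries, against 4.49, 4.50, 4.10 and 4.62 CPM in the jejunal ones. Libraries 2, 3 and 4 were above the jejunal range and library 1 was inside it. The log2 fold change of Hoxa3 was 0.43 (SE 0.11, adjusted p = 0.0357), and of the 8 fits that left out 1 library only the one without duodenal library 1 kept the call, with adjusted p from 0.0516 to 0.131 in the other 7. Hoxa3 was not called without duodenal libraries 2 and 3 either (adjusted p = 0.290). Hoxa2 had 1.89, 2.04, 2.13 and 1.70 CPM in the duodenal libraries, against 1.60, 1.08, 0.969 and 1.13 CPM in the jejunal ones, without overlap, and rose by 0.70 (SE 0.15, adjusted p = 0.0156). Without libraries 1 and 2 the adjusted p of Hoxa2 was 0.149, and it was 0.0620 without duodenal library 2 and 0.0555 without jejunal library 3. The call of Hoxa4 was lost without duodenal library 2 (adjusted p = 0.103), jejunal library 2 (0.0687) or jejunal library 3 (0.0655). Hoxaas2, a noncoding gene of the cluster, held with 1.78, 2.07, 1.78 and 1.63 CPM in the duodenal libraries against 1.19, 0.927, 1.04 and 0.883 CPM in the jejunal ones. Strand use in counting is not given in the sources used here, so reads of Hoxaas2 and of genes it may overlap cannot be told apart with certainty.

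Neighbours in the same clusters did not all move. Hoxb4 stood at 15.2 to 16.2 CPM in duodenal and 13.7 to 17.2 CPM in jejunal libraries, with a log2 fold change of 0.04 (95% interval -0.13 to 0.20). Hoxa5 stood at 4.15 to 5.32 CPM in duodenal and 4.08 to 4.47 CPM in jejunal libraries, with a log2 fold change of 0.13 (95% interval -0.07 to 0.34). Hoxd9 was abundant and differed less than Hoxa9, with 9.73, 7.23, 11.1 and 6.86 CPM in the duodenal libraries against 11.8, 15.3, 12.8 and 11.7 CPM in the jejunal ones. Its call was lost without duodenal library 2 (adjusted p = 0.0851) or jejunal library 2 (0.0610). Hoxc10 was at or below 0.0720 CPM in every duodenal library, against 0.0762 to 0.271 CPM in jejunal ones, and lost its call without duodenal library 1 (adjusted p = 0.0530), 2 (0.0907) or 4 (0.0512) or jejunal library 2 (0.0811) or 3 (0.0506).

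**Figure D3:**
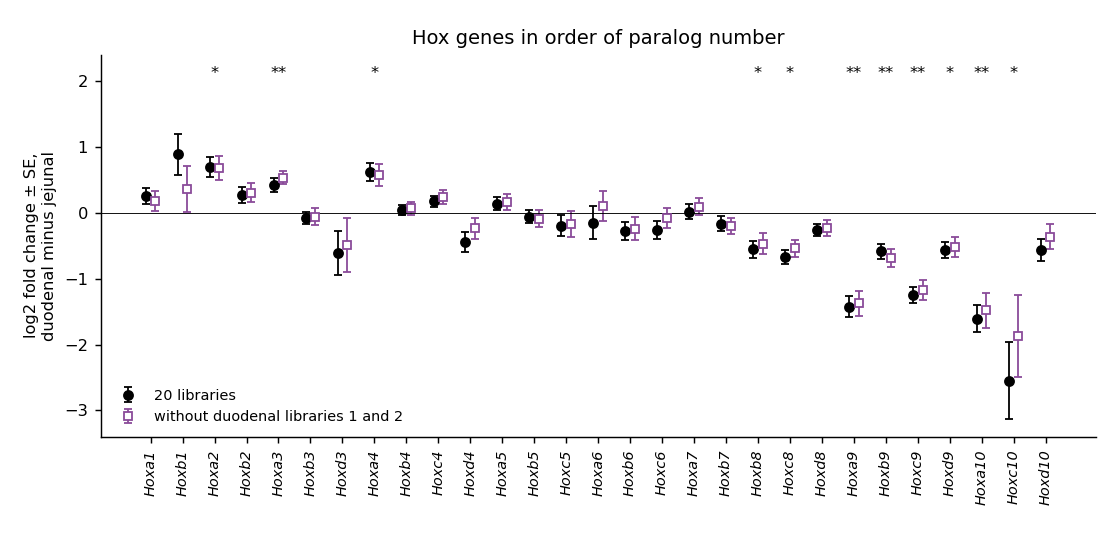
Log2 fold change of duodenal minus jejunal nodes with its standard error for the 29 Hox genes with a mean of at least 0.1 CPM in either group, in order of paralog number, with all libraries (black) and without duodenal libraries 1 and 2 (open squares). A single star marks a call in the 20-library fit and a double star a held call. The called genes are above 0 at Hoxa2, Hoxa3 and Hoxa4 and below 0 from Hoxb8 on. Of all tested Hox genes, called or not, 5 of 14 paralogs 1 to 5, 7 of 8 paralogs 6 to 8 and 7 of 9 paralogs 9 to 13 were below 0 in the 20-library fit.

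Few other factors of stromal position were called. Of 22 tested regional mesenchymal factors, 3 were called higher (1.29% of all genes were), and Nr2f1 and Tbx18 held. In the list, 13 fold changes were above 0 and 9 below. Nr2f1, the nuclear receptor COUP-TFI of developing mesenchyme and brain, stood at 18.3, 16.7, 22.8 and 20.4 CPM in the duodenal libraries, against 10.7, 8.66, 11.3 and 15.3 CPM in the jejunal ones. The groups did not overlap, and the log2 fold change was 0.77 (SE 0.15, adjusted p = 0.0124). Sox11, a developmental transcription factor outside the list, had 2.08, 2.28, 2.25 and 2.34 CPM in the duodenal libraries, against 1.16, 0.523, 1.09 and 1.05 CPM in the jejunal ones. It rose by 1.22 (SE 0.20, adjusted p = 0.00522), held, and kept its call without duodenal libraries 2 and 3 (adjusted p = 0.0190). Tbx18, a factor of mural and coelomic mesenchyme, was highest in libraries 3 and 2, with 0.454, 1.18, 1.44 and 0.502 CPM in the duodenal libraries against 0.391, 0.311, 0.272 and 0.290 CPM in the jejunal ones, and was not called without those libraries (adjusted p = 0.0772).

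Secreted modulators of Wnt and BMP signals changed in both directions. Of 32 tested ligands and modulators, 3 were called higher (1.29% of all genes were) and 4 lower (1.54%), and Inhba (higher) and Frzb (lower) held. Frzb, a secreted decoy that binds Wnt proteins, stood at 1.60, 2.50, 1.78 and 1.63 CPM in the duodenal libraries, against 3.87, 6.20, 5.09 and 6.33 CPM in the jejunal ones. Every duodenal library was below every jejunal one, and the log2 fold change was -1.51 (SE 0.20, adjusted p = 0.00111), and -1.65 without libraries 1 and 2 (adjusted p = 0.00420). Sfrp4, a relative of Frzb, was steady across the duodenal libraries with 6.99, 7.38, 6.97 and 7.22 CPM, against 11.5, 16.7, 12.7 and 14.1 CPM in the jejunal ones. Its log2 fold change of -0.94 (adjusted p = 0.0157) stood beside -0.96 without libraries 1 and 2, where its adjusted p was 0.151, and it missed the threshold without duodenal library 2 alone (0.0554).

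Wnt2 followed the direction of Frzb, and Bmp3 and Dkk2 the other. Wnt2, a mesenchymal Wnt ligand, had 1.57, 1.49, 2.26 and 1.66 CPM in the duodenal libraries, against 2.81, 4.10, 3.55 and 2.73 CPM in the jejunal ones, and was lost without duodenal library 2 (adjusted p = 0.0737). Bmp3, a BMP family member known to oppose other BMPs, had 2.89, 2.56, 2.58 and 2.17 CPM in the duodenal libraries, against 1.20, 0.750, 1.24 and 1.47 CPM in the jejunal ones. Dkk2, a secreted Wnt antagonist, had 8.65, 7.86, 9.06 and 7.27 CPM in the duodenal libraries, against 6.37, 4.54, 5.23 and 4.64 CPM in the jejunal ones. Both were without overlap and called in all 8 fits that left out 1 library, and their adjusted p without libraries 1 and 2 was 0.101 for Bmp3 and 0.0978 for Dkk2.

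Sostdc1, a secreted BMP and Wnt antagonist outside the list, held with 2.37, 5.81, 4.82 and 2.82 CPM in the duodenal libraries against 0.801, 1.28, 0.451 and 0.303 CPM in the jejunal ones. It rose by 2.47 (SE 0.38, adjusted p = 0.00396) and by 1.87 without duodenal libraries 2 and 3 (adjusted p = 0.0232). Inhba, the activin subunit, held in the fits defined above but followed the smooth muscle libraries, with 0.477, 6.23, 5.48 and 1.36 CPM in the duodenal libraries against 0.454, 1.15, 0.531 and 0.629 CPM in the jejunal ones. It was not called without duodenal library 2 (adjusted p = 0.109), jejunal library 3 (0.0702) or jejunal library 4 (0.0620).

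P2rx1, Npy1r, Ptn and Igf2 were held higher genes with no overlap and at least 5 CPM in duodenal nodes. P2rx1, an ATP-gated ion channel, stood at 4.44, 15.2, 11.6 and 4.47 CPM in the duodenal libraries, against 1.63, 0.740, 1.12 and 1.09 CPM in the jejunal ones. It was higher in every duodenal library, most in libraries 2 and 3, with a log2 fold change of 2.95 (SE 0.34, adjusted p = 0.000268) and 1.96 without those libraries (adjusted p = 0.000968). Npy1r, a receptor for neuropeptide Y, had 10.03, 15.5, 16.3 and 10.8 CPM in the duodenal libraries, against 6.66, 4.69, 5.71 and 5.07 CPM in the jejunal ones. It rose by 1.25 (SE 0.15, adjusted p = 0.000280), with 0.92 left without libraries 2 and 3 (adjusted p = 0.00242).

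Ptn, the heparin-binding growth factor pleiotrophin, did not follow the muscle libraries. It stood at 30.6, 28.1, 28.4 and 20.4 CPM in the duodenal libraries, against 17.1, 10.2, 11.7 and 12.3 CPM in the jejunal ones. It rose by 1.07 (SE 0.14, adjusted p = 0.000684) and by 0.999 without libraries 2 and 3 (adjusted p = 0.00485). Igf2, a growth factor of fetal and stromal tissue, had 13.1, 16.3, 21.9 and 16.5 CPM in the duodenal libraries, against 10.8, 7.35, 8.32 and 12.5 CPM in the jejunal ones, and rose by 0.80 (SE 0.16, adjusted p = 0.0139). Btc, a ligand of the EGF receptor, had 3.19, 4.92, 4.01 and 3.04 CPM in the duodenal libraries, against 2.35, 1.91, 1.85 and 1.63 CPM in the jejunal ones, and rose by 0.97 (SE 0.14, adjusted p = 0.00313). Ddc, the decarboxylase that makes dopamine and serotonin, rose by 0.88 (SE 0.13, adjusted p = 0.00202), with 2.93, 3.003, 2.83 and 2.39 CPM in the duodenal libraries against 1.87, 1.29, 1.505 and 1.37 CPM in the jejunal ones. Of these genes Igf2 missed the threshold without duodenal libraries 2 and 3 (adjusted p = 0.0966). Sostdc1, Btc, Ddc and Sox11 were chosen after their values were seen.

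A stricter count asked for a call in 3 fits: with all libraries, without duodenal libraries 1 and 2 (acinar), and without libraries 2 and 3 (muscle). It left 34 genes, 20 higher and 14 lower, a count made after the values were seen. The fit without libraries 1 and 2 kept library 3, which was high in muscle transcripts. The fit without libraries 2 and 3 kept library 1, which had the highest acinar sum. None of the 3 fits was thus free of both tissues. The third fit alone called 499 genes, 162 higher and 337 lower, of which 339 were among the 831. Beside those described above, the 20 included Scg2, a secretory granule protein of neurons, Corin, a membrane protease that processes natriuretic peptide, Perp, a desmosome-associated p53 target, Wnk2, a kinase of ion transport, Col9a2, a chain of a fibril-associated collagen, Wwc1, a scaffold of the Hippo pathway, and Hapln4, a link protein of hyaluronan matrix.

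Among these, Wwc1 stood at 1.48, 2.52, 0.805 and 0.801 CPM in the duodenal libraries, against 0.0994, 0.113, 0.0580 and 0.127 CPM in the jejunal ones, the largest fold change of the 34 (log2 3.82, SE 0.44, adjusted p = 0.000268). Hapln4 was uneven, with 1.20, 1.41, 0.165 and 1.49 CPM in the duodenal libraries against 0.103, 0.163, 0.130 and 0.133 CPM in the jejunal ones, so that library 3 lay just above the jejunal range. Col9a2 had 3.73, 2.43, 2.30 and 2.10 CPM in the duodenal libraries, against 1.30, 0.986, 1.09 and 1.18 CPM in the jejunal ones, and rose by 1.21 (SE 0.19, adjusted p = 0.00396). All 3 genes were higher in every duodenal library. The call of Scg2 was lost without jejunal library 3 (adjusted p = 0.0506).

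Stromal and matrix lists gave few calls. The T-zone list had 0 of 10 tested genes called, the collagen list 0 of 16 and the adventitial fibroblast list 0 of 15. Of 25 matrix glycoprotein and proteoglycan genes, Thbs2, the matricellular protein thrombospondin 2, was called lower and did not hold. It stood at 21.9, 27.7, 28.0 and 28.4 CPM in the duodenal libraries, against 33.1, 36.9, 36.4 and 38.0 CPM in the jejunal ones, without overlap. It fell by 0.44 (SE 0.093, adjusted p = 0.0148) and kept its call in all 8 fits that left out 1 library, and without duodenal libraries 2 and 3, 5 genes of that list were called lower. Adamts4, a protease that cuts proteoglycans, was the 1 called gene of 14 matrix proteases and inhibitors, and Cox4i2, a subunit of cytochrome oxidase, of 7 pericyte genes. Both were lower and neither held: Adamts4 was lost without duodenal library 1 or 2 or jejunal library 2, 3 or 4 (adjusted p up to 0.115), and Cox4i2 without duodenal library 2 or 4 or any 1 jejunal library (up to 0.141). Cox4i2 went against its list: of the 7 pericyte genes, 6 had fold changes above 0, and Cox4i2 was the 1 below. Of 12 medullary reticular genes, Apod was called higher and held, and Nr4a2 was called lower. In that list 2 fold changes were above 0 and 10 below. The call of Nr4a2 was lost without duodenal library 2 (adjusted p = 0.0776) or jejunal library 2 (0.0524). Apod, a lipid carrier, had 20.2, 30.1, 35.6 and 21.5 CPM in the duodenal libraries, against 11.6, 18.2, 13.7 and 13.5 CPM in the jejunal ones, a log2 fold change of 0.92 (SE 0.16, adjusted p = 0.00867). It was highest in libraries 2 and 3 and was not called without them (log2 fold change 0.56, adjusted p = 0.0725). Cxcl13, the chemokine that organises follicles, was the only called gene of the 9 tested follicular and marginal reticular genes. It stood at 49.1, 27.8, 42.02 and 25.6 CPM in the duodenal libraries, against 19.7, 4.67, 12.4 and 9.15 CPM in the jejunal ones, without overlap. Its log2 fold change was 1.65 (SE 0.30, adjusted p = 0.00867) with all libraries, 1.71 without duodenal libraries 2 and 3 (adjusted p = 0.0190), and 1.55 without libraries 1 and 2, where it missed the threshold (adjusted p = 0.0539).

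C6, a component of the membrane attack complex of complement, fell and held. It stood at 32.8, 23.8, 40.5 and 33.5 CPM in the duodenal libraries, against 67.1, 111, 87.5 and 64.5 CPM in the jejunal ones. The groups did not overlap, and the log2 fold change was -1.34 (SE 0.18, adjusted p = 0.00103), and -1.16 without libraries 1 and 2 (adjusted p = 0.0157). Of the 15 complement genes tested, Cfp and Cd55 were called lower too, and neither held. Without duodenal library 2 the adjusted p was 0.153 for Cd55 and 0.173 for Cfp, and both calls were also lost without duodenal library 4, jejunal library 2 or jejunal library 3, Cd55 without duodenal library 1 or jejunal library 1, and Cfp without jejunal library 4.

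**Figure D4:**
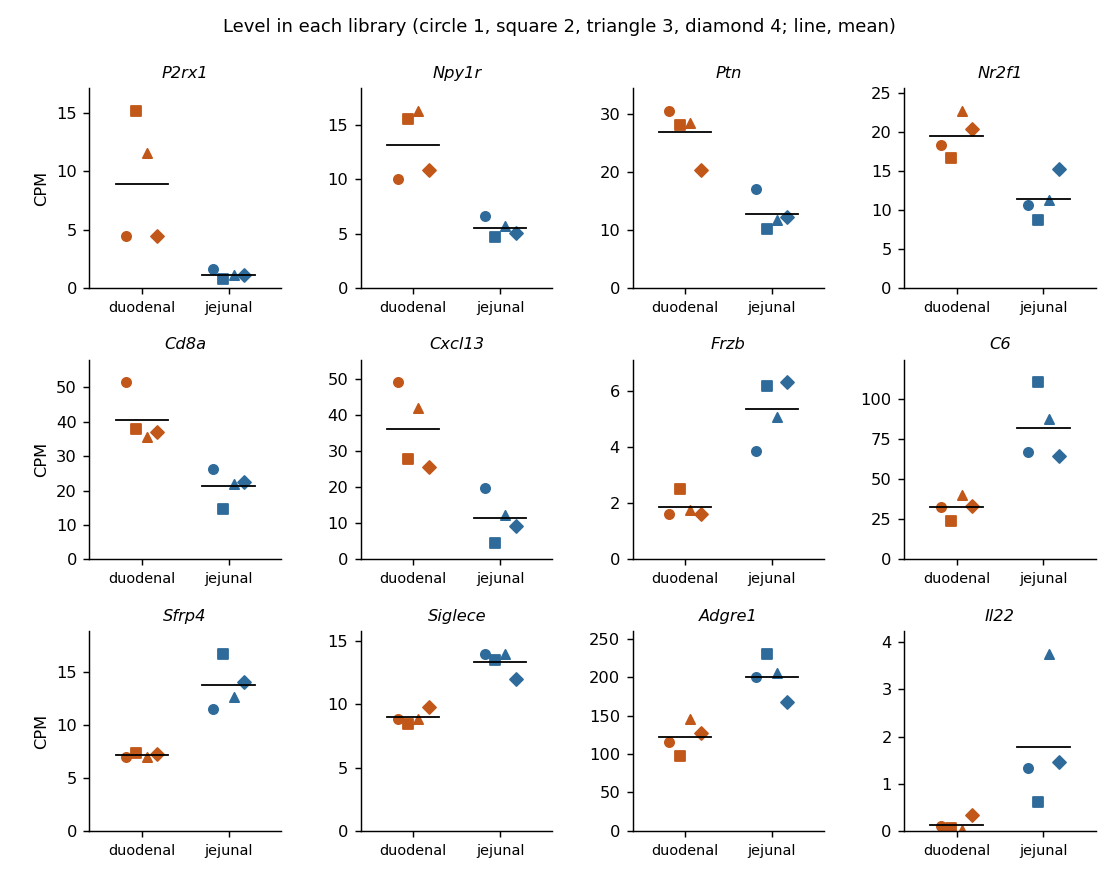
CPM in each duodenal (orange, left) and jejunal (blue, right) library for 12 genes, with the library number given by the symbol and the group mean by a line. The groups do not overlap for any of the 12 genes, P2rx1 and Npy1r are highest in duodenal libraries 2 and 3, and C6 is highest in jejunal library 2.

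Of the gene lists without a held call, that of resident macrophages had the most calls outside the acinar one. Of 18 tested genes, 10 were called lower (1.54% of all genes were) and 0 held. Each of the 10 was without overlap between the libraries, which a call favours: 377 of all 453 genes called lower did not overlap, against 6.61% of all genes tested. The list summed to 4379, 3627, 4992 and 4364 CPM in the duodenal libraries, against 5883, 6839, 6436 and 6106 CPM in the jejunal ones, so libraries 3 and 4 were low as well. The median log2 fold change was -0.42 with all libraries and -0.34 without libraries 1 and 2. Without duodenal libraries 2 and 3, 7 of the genes were called lower. Of the 10 called genes, 6 kept their call in each of the 8 fits that left out 1 library.

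Adgre1, the macrophage marker F4/80, stood at 116, 97.5, 145 and 128 CPM in the duodenal libraries, against 200.2, 231, 205 and 167 CPM in the jejunal ones. For Adgre1 the log2 fold change was -0.72 (SE 0.12, adjusted p = 0.00468) with all libraries and -0.56 (SE 0.13, adjusted p = 0.0665) without libraries 1 and 2. Siglec1, the sialic acid receptor of subcapsular and medullary sinus macrophages, had 344, 370.0, 556 and 471 CPM in the duodenal libraries, against 657, 944, 754 and 669 CPM in the jejunal ones, and fell by 0.80 (SE 0.15, adjusted p = 0.00922). Marco, a scavenger receptor of medullary macrophages and sinus endothelium, had 1085, 706.7, 1073 and 866.7 CPM in the duodenal libraries, against 1395, 1542, 1513 and 1353 CPM in the jejunal ones, and fell by 0.64 (SE 0.13, adjusted p = 0.0128). Csf1r, the receptor that keeps macrophages alive, fell by 0.56 (SE 0.09, adjusted p = 0.00593). The genes of complement C1q, which macrophages make, fell less: C1qa by 0.36, C1qb by 0.37 and C1qc by 0.46 on the log2 scale, and C1qa lost its call without duodenal library 2 (adjusted p = 0.0797) or jejunal library 4 (0.0615). Without libraries 1 and 2 the adjusted p was 0.175 for Siglec1, 0.0879 for Marco and 0.0978 for Csf1r. The acinar sum was high in libraries 1 and 2, the muscle sum in libraries 2 and 3 and the adipocyte sum in jejunal library 2, and the part of these tissues in the macrophage levels was not tested.

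Siglece and Fcgr3, receptors of myeloid cells, fell in all 3 fits. Siglece, an inhibitory sialic acid receptor, stood at 8.81, 8.45, 8.87 and 9.81 CPM in the duodenal libraries, against 14.01, 13.5, 13.98 and 12.01 CPM in the jejunal ones. It fell by 0.57 (SE 0.09, adjusted p = 0.00336). Fcgr3, a low-affinity receptor for IgG, had 43.8, 49.0, 58.9 and 58.4 CPM in the duodenal libraries, against 69.6, 78.6, 73.2 and 73.3 CPM in the jejunal ones, and fell by 0.49 (SE 0.08, adjusted p = 0.00428). Both were without overlap, held, and stayed called without duodenal libraries 2 and 3. The other held genes with at least 5 CPM that fell were Fxyd2, a regulator of the sodium pump, Ermp1, a metallopeptidase of the endoplasmic reticulum, Gpr146, an orphan receptor, and Psen2, a subunit of gamma-secretase, with log2 fold changes of -0.50, -0.46, -0.43 and -0.35.

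Some lymphatic and lipid handling genes were called lower, and none of them held. Of 17 lymphatic endothelial and sinus genes, 7 were called lower (1.54% of all genes were) and 0 held. Of the 7, 1, Marco, kept its call in all 8 fits that left out 1 library. Marco and Lyve1 are also members of the macrophage list. The lymphatic list summed to 4670, 3884, 4974 and 4435 CPM in the duodenal libraries, against 4961, 4581, 5375 and 5542 CPM in the jejunal ones, so the groups overlapped. Lyve1, the hyaluronan receptor of lymphatic endothelium and some macrophages, had 149, 148, 281 and 184 CPM in the duodenal libraries, against 302, 395, 405 and 329.5 CPM in the jejunal ones, with library 3 close to the jejunal range. Its call was lost without duodenal library 2 (adjusted p = 0.0549). Of 16 genes of macrophage lipid handling, 4 were called lower (1.54% of all genes were). Among them was Msr1, a scavenger receptor for modified lipoproteins, with 61.3, 64.4, 96.9 and 70.0 CPM in the duodenal libraries against 104, 122, 128 and 111 CPM in the jejunal ones. Sterol synthesis had 0 of 16 genes called.

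Innate lymphoid and dendritic cell genes differed singly. Il22, the cytokine of type 3 innate lymphoid cells that acts on epithelium, stood at 0.0978, 0.0625, 0.0212 and 0.340 CPM in the duodenal libraries, against 1.33, 0.607, 3.76 and 1.45 CPM in the jejunal ones. It was lower in every duodenal library, with a log2 fold change of -3.80 (SE 0.67, adjusted p = 0.00847), and -3.35 (SE 0.86, adjusted p = 0.116) without libraries 1 and 2. It was the only called gene of the 10 tested type 3 innate lymphoid genes, and the lists of natural killer, type 2 innate lymphoid and mast cells had 0 called genes.

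Cd8a, a marker of T cells and of a dendritic cell subset, rose and held. It stood at 51.6, 38.1, 35.6 and 37.2 CPM in the duodenal libraries, against 26.4, 14.6, 21.9 and 22.4 CPM in the jejunal ones, a log2 fold change of 0.93 (SE 0.14, adjusted p = 0.00268). It was the 1 called gene of 9 tested type 1 dendritic cell genes, of which 4 had fold changes above 0 and 5 below. Cd8a is also in the lymphocyte lineage list, where Cd28, a costimulatory receptor of T cells, and Jchain, the joining chain of secreted antibodies, were called higher too and did not hold. Of the 18 genes of that list 14 had fold changes above 0, and its sums overlapped at 590.8, 525.4, 574.9 and 572.8 CPM in the duodenal libraries, against 591.1, 519.1, 580.8 and 551.4 CPM in the jejunal ones. Cd28 was lost without duodenal library 2 or jejunal library 2 or 4 (adjusted p up to 0.0617), and Jchain without duodenal library 1 or 2 or jejunal library 2, 3 or 4 (up to 0.0984). Cd8b1, the partner chain of Cd8a in T cells, had a log2 fold change of 0.42 and was not called (adjusted p = 0.223). Which cells the Cd8a transcripts came from was not tested. Tnfsf4, the costimulatory ligand OX40L, had 1.94, 1.07, 1.35 and 1.26 CPM in the duodenal libraries, against 3.28, 2.09, 4.61 and 2.32 CPM in the jejunal ones. For Tnfsf4 the log2 fold change was -1.14 (SE 0.23, adjusted p = 0.0118) with all libraries and -1.24 (adjusted p = 0.0539) without libraries 1 and 2, and it missed the threshold without duodenal library 2 alone (0.0554).

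Genes that respond to diet-derived compounds gave few calls. Of 13 tested genes of the aryl hydrocarbon receptor list, the cytochromes Cyp1b1 and Cyp1a1 were called lower (1.54% of all genes were) and 0 held. Cyp1b1 stood at 199, 173, 239.9 and 193 CPM in the duodenal libraries, against 287, 322, 331 and 262 CPM in the jejunal ones, and fell by 0.58 (SE 0.11, adjusted p = 0.00902). Of 15 tested genes of retinoid metabolism, Crabp2 was called higher and Aldh1a3 lower, and 0 held. In that list 9 fold changes were above 0 and 6 below. Aldh1a3, a retinoic acid-making enzyme, had 4.49, 4.98, 6.13 and 3.46 CPM in the duodenal libraries, against 8.97, 10.7, 6.90 and 7.61 CPM in the jejunal ones, and fell by 0.84 (SE 0.18, adjusted p = 0.0152). Aldh1a2, another retinoic acid-making enzyme, was not called, at 128 to 181 CPM in duodenal and 143 to 207 CPM in jejunal libraries (log2 fold change -0.22, 95% interval -0.53 to 0.08). Without libraries 1 and 2 the adjusted p was 0.131 for Cyp1b1 and 0.164 for Aldh1a3. The call of Cyp1a1 was lost without duodenal library 1, 2 or 4 or jejunal library 1 or 2, with adjusted p up to 0.0807.

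Genes of gut node identity did not pass the test. Nkx2-3 had a log2 fold change of -0.01 with a 95% interval of -0.23 to 0.22. Madcam1, the venule ligand for gut-homing cells, had 104, 65.7, 72.8 and 47.7 CPM in the duodenal libraries, against 53.0, 33.3, 54.5 and 55.6 CPM in the jejunal ones. Its log2 fold change of 0.56 (95% interval 0.18 to 0.94) had an adjusted p of 0.101, and it was called when duodenal library 4 was left out (adjusted p = 0.0240). Il33, the alarmin of reticular cells, had a log2 fold change of -0.35 (95% interval -0.57 to -0.13, adjusted p = 0.0784). Over the 50 lists, 31 had a called gene and 10 a held one. The lists with 0 called genes included inflammatory chemokines, interferon response, immediate early genes, endoplasmic reticulum stress, cell division, granulocytes and migratory dendritic cells.

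The levels at the other positions place some of these genes. Hoxa9 averaged 0.390 ± 0.0694 CPM in duodenal and 1.05 ± 0.180 CPM in jejunal nodes, and 1.91 ± 0.175 CPM in ileal, 5.56 ± 0.468 CPM in ceco-colonic and 2.40 ± 0.455 CPM in inguinal nodes (SD, 4 libraries each). Frzb averaged 1.88 ± 0.422 CPM in duodenal and 5.37 ± 1.15 CPM in jejunal nodes, and 8.93 ± 2.14, 10.5 ± 2.55 and 2.73 ± 0.235 CPM in ileal, ceco-colonic and inguinal nodes. For both genes the means step up along the gut, and for Frzb the ileal and ceco-colonic means lie within each other's SD. C6 was highest in ileal and jejunal nodes, with 32.6 ± 6.83 CPM in duodenal and 82.5 ± 21.6 CPM in jejunal nodes, and 99.8 ± 13.2, 41.9 ± 7.77 and 38.8 ± 4.67 CPM in ileal, ceco-colonic and inguinal nodes. Npy1r and Ptn were high in duodenal and inguinal nodes: Npy1r averaged 13.2 ± 3.20 CPM in duodenal, 5.53 ± 0.860 CPM in jejunal and 19.4 ± 1.64 CPM in inguinal nodes, and Ptn 26.9 ± 4.48, 12.8 ± 2.94 and 46.2 ± 4.81 CPM in the same nodes. Sox11 was highest in duodenal nodes at 2.24 ± 0.113 CPM, against 0.957 ± 0.293 CPM in jejunal nodes and 0.407 to 0.490 CPM at the other positions. The comparisons of other positions share these libraries: duodenal against ileal nodes gave 4297 called genes (14.6%) and jejunal against ileal nodes 20 (0.068%).

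**Figure D5:**
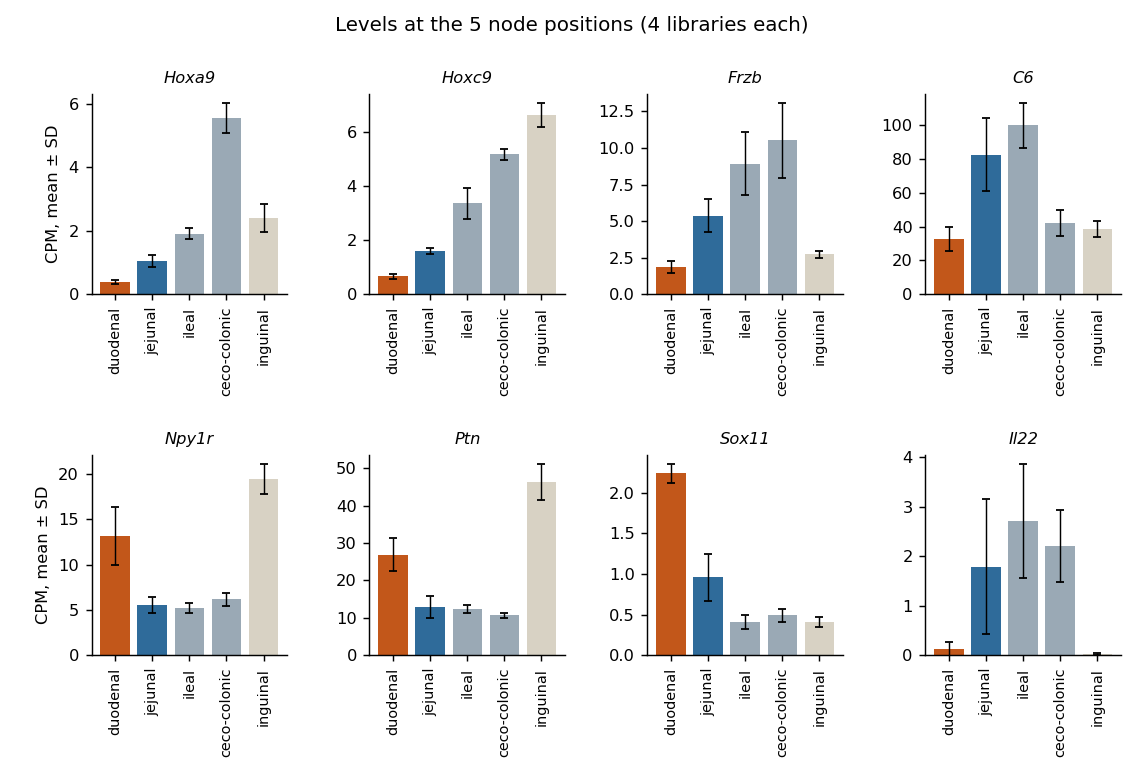
Mean CPM with SD over 4 libraries at the 5 node positions for 8 genes, duodenal in orange and jejunal in blue. Hoxa9, Hoxc9 and Frzb step up from duodenal to ceco-colonic nodes, C6 is high in jejunal and ileal nodes, and Sox11 is highest in duodenal nodes.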

How the data were processed

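Whole lymph nodes were profiled as polyA RNA, extracted with the PicoPure kit and prepared with a NEBNext poly(A) kit, per the labels' protocols. The tools kallisto, limma and edgeR and the builds GRCm39 and mm10 are listed without roles, per the submitters' processing notes. Their versions and which build served which step were not given in the sources used here, so no coordinates of the tested genes are given, and promoter windows are from RefSeq (GRCm38.p6).

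The deposited gene table holds expected counts (estimated counts) for 56258 genes, 135 of them without a symbol. The authors' deposited transcript tables hold estimated counts and TPM for 149419 transcripts. Summing length-scaled TPM within genes gave 99.7% of the gene table's values within 0.001 on the log2 scale over 12483 genes with at least 500 counts, whereas plain sums gave 3.35%, so the values are scaled by transcript length and are not raw read counts.

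Rounded estimates entered edgeR 4.0.16 under R 4.3.3: filterByExpr by position (minimum count 10, minimum total 15), TMM normalization and a quasi-likelihood fit of 20 libraries with 1 mean per position. The median biological coefficient of variation was 0.157, and 4.47 prior degrees of freedom were used. Standard errors and 95% intervals come from this model, and CPM are TMM-scaled. A call needed p under 0.05 after Benjamini-Hochberg adjustment across the 29411 genes, and held where it was also made, with the same sign, without duodenal libraries 1 and 2.

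The libraries, the 50 gene lists (653 symbols) and the rule for naming genes were chosen with earlier results of these data known. The rule named up to 12 held genes in each direction (no overlap, at least 5 CPM, no gene-model names or receptor segments), the 6 largest fold changes among genes called with at least 5 CPM but not without libraries 1 and 2 (both outside the pancreatic lists), up to 3 called genes per list or its most abundant gene, and a fixed set, 104 in all. A selection of these is reported, and genes added after their values were seen are marked so. Libraries of a group correlated at 0.9758 to 0.9878 (duodenal) and 0.9863 to 0.9903 (jejunal) over log2 CPM (prior count 2). The procedure was tested on simulated data with 100 changed genes per size: the 20-library fit recovered 41% of 1.5-fold and 58% of 2-fold changes with 2.94% false calls, and the fit without libraries 1 and 2 recovered 22% and 48% with 2.78%. Alternatives were DESeq2 1.42.0, limma-voom (limma 3.58.1), other size factors and filters, a replicate block, plain transcript sums, the 8 libraries alone, the acinar list removed, and left-out libraries. The motif TTTAT was searched on both strands of the promoter windows.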

Additional observations from a re-analysis of the deposited data

Results flagged for a closer look

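Of 192 groups of 4 library values (duodenal and jejunal, for the genes described), 15 held a library whose gap to its nearest neighbour exceeded Dixon's 95% critical share of the group's range, where chance flags about 1 group in 20. Jejunal library 1 stood apart in 3 genes that were high in duodenal libraries 1 and 2: Cpa1 at 6.52 CPM (next 0.296), Dmbt1 at 2.09 CPM (next 0.0848) and Pdia2 at 0.361 CPM (next 0.0484). Jejunal library 2 stood apart in the adipocyte genes Adipoq at 163 CPM (next 48.5), Lipe at 201 CPM (next 124) and Pnpla2 at 272 CPM (next 154), and in Snap25 at 0.0542 CPM (next 0.00994), Hoxc8 at 14.2 CPM (next 11.4) and, on the low side, Madcam1 at 33.3 CPM (next 53.0). Duodenal library 3 stood apart in the neuropeptide genes Vip at 1.83 CPM (next 0.327) and Scg2 at 0.699 CPM (next 0.218), and in Hoxb8 at 4.77 CPM (next 3.74). Duodenal library 1 was apart in Cd8a at 51.6 CPM (next 38.1) and, on the low side, in Thbs2 at 21.9 CPM (next 27.7), and jejunal library 3 in Ermp1 at 61.0 CPM (next 54.7). What sets these libraries apart was not tested.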

How the results depend on the processing

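Against 831 called and 101 held genes, DESeq2 gave 1716 and 334, limma-voom 513 and 51, and the 8 libraries alone 0 and 0. Plain sums of transcript estimates left 167 held. The share of calls that were higher was 45.5% in the reported fit, 34.7% with limma-voom, 37.7% with the stricter filter, 54.4% with no filter and 51.3% with plain sums. It was 60.1%, 59.3% and 50.5% without duodenal library 1, 2 and 4, 56.6% without jejunal library 2, 84.4% without duodenal libraries 1 and 2 and 32.5% without libraries 2 and 3, so the balance of directions depends on these choices. Without duodenal libraries 1 and 2 the count was 109, without libraries 3 and 4 it was 1360, and without libraries 2 and 3, added after the values were seen, 499. Leaving out 1 library gave 216 (duodenal library 2) to 1158 called genes, with 486, 435 and 454 without jejunal library 2, 3 and 4, and 13 (duodenal library 3) to 195 (duodenal library 4) held genes, with 26 and 64 without jejunal library 3 and 4. The causes of these shifts were not tested.

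Of the 134 genes followed, 8 changed direction, all of them without duodenal libraries 1 and 2: log2 fold changes were -1.26 for Amy2a2, Amy2a3 and Amy2a4, -1.18 for Prss3b, -1.17 for Dmbt1, -0.22 for Pdia2, -0.12 for Ctrl and -1.40 for Cpa1. For the Amy2a genes, Dmbt1, Pdia2 and Cpa1, duodenal libraries 3 and 4 lay above jejunal libraries 2, 3 and 4. For these genes only jejunal library 1 was higher than duodenal libraries 3 and 4. Over all genes and alternatives, 2247 fold changes kept direction and side of the threshold, 389 lost the call and 10 gained it. Size factors of the DESeq2 type, and removal of the acinar list before scaling, changed no call among them.

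Deviations of same-numbered duodenal and jejunal libraries from their group means correlated at 0.357, 0.114, 0.0711 and 0.134 for numbers 1 to 4. The highest correlation of each duodenal library with a jejunal library of another number was -0.0431, 0.0661, 0.152 and 0.125. Numbers 1, 2 and 4 thus correlated best with their own number, and number 3 did not. The labels do not say whether a number marks an animal, so the numbers were not taken as pairs. With the replicate number as a block, 1597 genes were called and 110 held (82 higher, 28 lower), of which 69 were among the 101 held without the block. The lowest levels given here, under 0.1 CPM, rest on few counts.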
